A study of Mus musculus with 4 samples.

Results

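The Notch pathway carries signals between touching cells. A ligand of the Jagged or Delta-like family on one cell binds a Notch receptor on its neighbour. The receptor is then cut by proteases, and its inner part moves to the nucleus, where it joins the DNA-binding protein RBPJ and switches on targets such as the transcriptional repressors of the Hes and Hey families. In the mammary gland the pathway is known for its part in the choice between luminal and basal epithelial fates, and in most tissues it also acts in blood vessels and in lymphocytes. The 10 genes described here are the 4 receptors *Notch1* to *Notch4*, the 4 ligands *Jag1*, *Jag2*, *Dll1* and *Dll4*, and the 2 target genes *Hes1* and *Hey1*. They were chosen by gene name, not by a threshold on their values, and all 10 were present among the 21895 distinct gene entries of the deposited table.

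The RNA came from mammary glands of 4 virgin mice, aged 2 months per the labels, on a mixed 129SV::FVB/N::C57BL/6 background. There were 2 wild-type mice (miR-21+/+) and 2 mice without the microRNA miR-21 (miR-21-/-). The labels name no treatment, and no promoter or cell type to which the loss of miR-21 is limited. The deposited table gives 1 FPKM value (a level per transcript length, normalised by the authors for the fragments mapped) for each gene and genotype. As this value pools both mice, no spread within a genotype can be seen, a difference between the genotypes has no replicate check, and no p-value is given. Differences are stated as the log2 ratio of the miR-21-/- over the miR-21+/+ value, without a pseudocount.

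Some facts of the whole table bear on every value below. Total read counts per library were not used here, so the depth behind each value is unknown. Steps of whole reads were looked for only among low values of loci without a gene name. As each value pools both mice, such steps could be blurred, so that search cannot tell the depth. The FPKM values of all 30506 loci summed to 759295 in wild-type and 1175603 in miR-21-/- glands, while those of the loci with a gene name summed to 380567 and 355385. The higher sum over all loci in miR-21-/- glands thus came from loci without a gene name. Scaling both columns to equal sums over all loci would shift each log2 ratio by −0.63, and scaling to equal sums over named loci by 0.10. As deposited, the median log2 ratio of named loci over 5 FPKM was −0.03. The values are given as deposited. Ratios between genes within a genotype do not depend on this choice. The table lists *Mir21* with its host gene *Vmp1* as a single locus at 42.5 FPKM in wild-type and 68.2 FPKM in miR-21-/- glands, and poly(A) RNA does not measure the mature microRNA, so this value does not check the genotype labels. Markers of mammary tissue were present in both genotypes. *Krt8* of luminal cells stood at 119 and 197 FPKM and *Adipoq* of fat cells at 1207 and 853 FPKM, a pair picked with their values known.

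Because the study removed miR-21, its binding sites are the sequence feature of the Notch genes that the design bears on. A microRNA pairs with the 3′ UTR of a messenger RNA through its seed, bases 2 to 8, and usually lowers the level of that RNA or its protein. The mature miR-21 is shown as listed by RefSeq (GRCm38.p6, chromosome 11, 86584120 to 86584141, minus strand), with the seed in capitals.
mmu-miR-21a-5p: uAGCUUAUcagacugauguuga
In DNA letters the matching site in a transcript reads ATAAGCT (a 7mer-m8 site), or ATAAGCTA (an 8mer site) when an A follows. The longest annotated 3′ UTR of each of the 10 genes was searched in the transcript's own direction. *Notch2* and *Jag1* each held 1 site, in both cases an 8mer, and the other 8 genes held none. Both sites are shown on the strand of the transcript with the site in capitals. They were read from mm9, at chr3:97952274-97952303 (plus strand) for *Notch2* and at chr2:136907463-136907492 (minus strand) for *Jag1*.
*Notch2*: atgtccaagaaATAAGCTAacttgctcaag
*Jag1*: ggagtattctcATAAGCTAgttgaatactt
The *Notch2* site begins at base 918 of a 3′ UTR of 2923 bases, and the *Jag1* site at base 1279 of 1568. Among 9043 genes with an annotated 3′ UTR and over 5 FPKM in at least 1 genotype, 7.03% held an 8mer or 7mer-m8 site and 1.96% held an 8mer.

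The levels of the 10 genes fell into a group of 6 close together and a group of 4 lower ones. *Notch4* enters by an entry merged with *Gpsm3*, so its own place is unknown. In miR-21+/+ glands the order was *Jag1* (16.6 FPKM), *Notch4* (15.9), *Hes1* (15.9), *Notch3* (15.7), *Notch2* (14.1) and *Notch1* (13.8), followed by *Jag2* (8.29), *Hey1* (6.52), *Dll1* (5.11) and *Dll4* (2.47). In miR-21-/- glands the same 6 genes led, in the order *Notch3* (16.8 FPKM), *Hes1* (16.6), *Notch1* (15.6), *Notch4* (15.5), *Jag1* (12.5) and *Notch2* (12.5). The lower group there was *Jag2* (9.50), *Dll1* (7.06), *Hey1* (5.47) and *Dll4* (3.90). Among the entries used, *Jag1* thus led in wild-type and *Notch3* in miR-21-/- glands, while *Dll4* was the lowest in both genotypes. A second, lower entry of *Notch1*, at 3.13 FPKM in wild-type and 3.57 FPKM in miR-21-/- glands, is left out of this order. If it were added, *Notch1* would lead in both genotypes. With 1 value per genotype it cannot be said which neighbours in this order differ beyond the spread between mice.

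**Figure D1:**
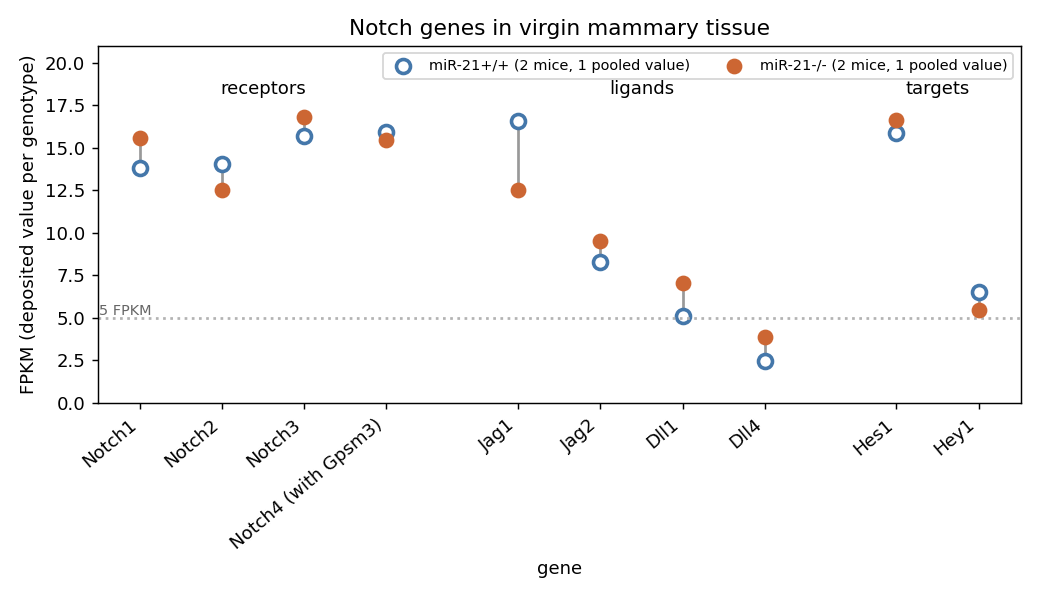
FPKM (vertical axis, from 0) of the 10 Notch genes, with an open circle for the pooled miR-21+/+ value and a filled circle for the pooled miR-21-/- value of 2 mice each, and no error bars since there is 1 value per genotype. The widest gap is that of *Jag1*, at 16.6 against 12.5 FPKM, and *Dll4* is the only gene with both values under the dotted line at 5 FPKM.

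Of the 10 genes, 9 exceeded 5 FPKM in at least 1 genotype, the minimum that the study set, and *Dll4* did not. None of these 9 was 2-fold apart between the genotypes, and none was 1.5-fold apart. Among all 9660 named loci over the same minimum, 2.67% were at least 2-fold apart and 8.07% at least 1.5-fold, so a count of 0 among 9 genes lies near the background. As deposited, 5 of the 9 had the higher value in miR-21-/- glands and 4 the lower, where 43.1% of all named loci over the minimum were higher. With equal sums over all loci all 9 were lower, but so were most named loci, as every log2 ratio shifts by −0.63. With equal sums over named loci *Notch4* was also higher. The share of all named loci that were higher was not computed under either scaling. The median log2 ratio of the 9 was 0.07, beside −0.03 for all named loci over the minimum, of which the middle 50% lay between −0.16 and 0.09.

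The receptors are single-pass membrane proteins that share their way of activation. *Notch1* (chromosome 2, 26301224 to 26359363 in mm9), which is broadly expressed and required for T cell development, stood at 13.8 FPKM in wild-type and 15.6 FPKM in miR-21-/- glands, a log2 ratio of 0.17. *Notch2* (chromosome 3, 97817461 to 97954290), the receptor that marginal zone B cells depend on, stood at 14.1 and 12.5 FPKM, a log2 ratio of −0.17. *Notch3* (chromosome 17, 32257106 to 32303818), known from the smooth muscle cells and pericytes of vessels, stood at 15.7 and 16.8 FPKM, a log2 ratio of 0.10. These 3 genes thus lay within 1.13-fold of their wild-type level, and 38.0% of all named loci over the minimum were at least as far apart as *Notch1*. *Notch4*, known from endothelial cells, shares its entry with the neighbouring *Gpsm3* (chromosome 17, 34701240 to 34729089). This merged entry stood at 15.9 and 15.5 FPKM, a log2 ratio of −0.04, and the part of *Notch4* in it cannot be told apart.

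Within a genotype the 4 receptor entries were of similar level. Of their summed FPKM, which was 59.5 in wild-type and 60.4 in miR-21-/- glands, each held between 20.7% and 27.8%. *Notch2* held 23.6% in wild-type and 20.7% in miR-21-/- glands, a difference of −2.91 percentage points. *Notch1* held 23.2% and 25.8%, a difference of 2.61 points, so that the level of *Notch1* relative to *Notch2* was 0.98 in wild-type and 1.25 in miR-21-/- glands. Of the 4 entries *Notch2* thus had the lowest share in miR-21-/- glands, and *Notch1* had it in wild-type glands. This place of *Notch1* rests on leaving out its second entry, at 3.13 FPKM in wild-type and 3.57 FPKM in miR-21-/- glands. With that entry added, *Notch1* had the highest and *Notch2* the lowest share in both genotypes. *Notch2* holds an 8mer site shown above, and whether the site bears on its share was not tested. Without the merged entry of *Notch4* the difference for *Notch2* was −4.41 points.

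The log2 ratios of the 4 ligands ran from −0.41 to 0.66, a wider range than the −0.17 to 0.17 of the receptors, though the difference in range was not tested. *Jag1* (chromosome 2, 136907187 to 136942256), a Jagged ligand of epithelium and vessels, stood at 16.6 FPKM in wild-type and 12.5 FPKM in miR-21-/- glands, 1.33-fold lower, with a log2 ratio of −0.41. It was the largest difference among the 9 genes in the direction of lower values, and 14.6% of all named loci over the minimum were at least as far apart. The 3′ UTR of *Jag1* holds the other 8mer site shown above. *Dll1* (chromosome 17, 15504318 to 15512787), a Delta-like ligand known from mammary basal cells, stood at 5.11 and 7.06 FPKM, 1.38-fold higher in miR-21-/- glands, with a log2 ratio of 0.47. As deposited, 12% of the named loci over the minimum were at least as far apart as *Dll1*. With equal sums over all loci the log2 ratios were −1.04 for *Jag1* and −0.17 for *Dll1*, so *Jag1* kept its direction and *Dll1* did not.

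*Dll4* (chromosome 2, 119146935 to 119161402), the ligand of sprouting endothelial cells, stood at 2.47 FPKM in wild-type and 3.90 FPKM in miR-21-/- glands. It was 1.58-fold higher, with a log2 ratio of 0.66, and of the 10 genes it alone was more than 1.5-fold apart. Its level was low, however, and of the 3662 named loci whose higher value lay over 1 and at most 5 FPKM, 21.1% were at least 1.5-fold apart. Over 1 FPKM in at least 1 genotype the share was 11.6% of 13322 named loci. With equal sums over all loci the log2 ratio of *Dll4* was 0.03. *Jag2* (chromosome 12, 114145926 to 114167712), the second Jagged ligand, stood at 8.29 and 9.50 FPKM, a log2 ratio of 0.20. The deposited table marks the comparison of *Jag2* as failed, as it does for 1347 of the 30506 loci.

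**Figure D2:**
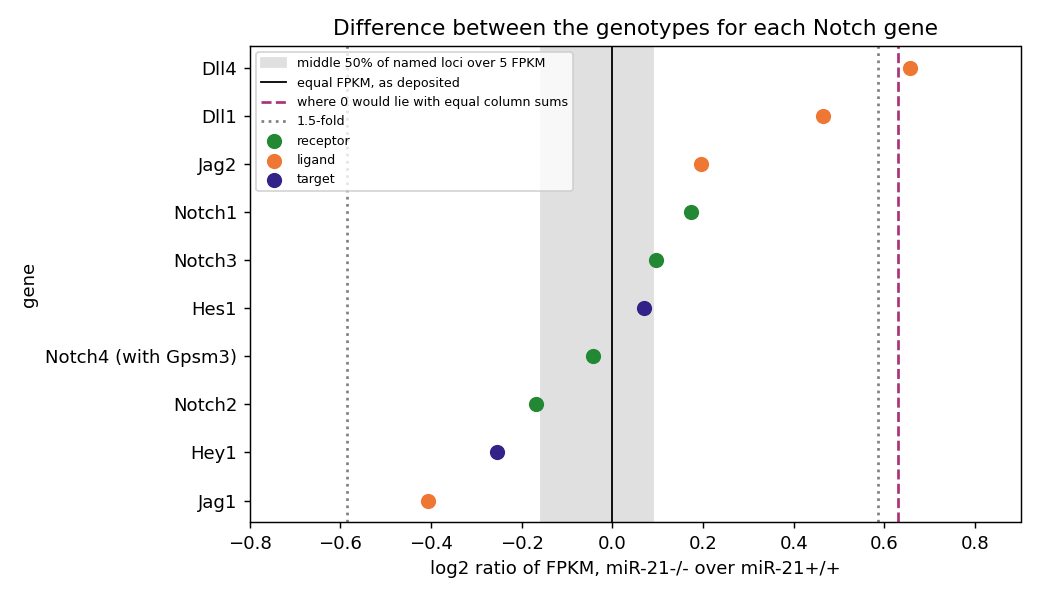
Log2 ratio of FPKM, miR-21-/- over miR-21+/+, for the 10 genes in order, coloured as receptor, ligand or target. The grey band holds the middle 50% of named loci over 5 FPKM, from −0.16 to 0.09, the dotted lines mark 1.5-fold and the dashed line marks where 0 would lie with equal sums over all loci, to the left of which lie all genes except *Dll4*.

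As deposited, the ligands had nearly the same summed FPKM in both genotypes, while the share of each gene in it differed. The sum of the 4 was 32.5 FPKM in wild-type and 33.0 FPKM in miR-21-/- glands. *Jag1* held 51.1% of it in wild-type and 38.0% in miR-21-/- glands, a difference of −13.2 percentage points. The share of *Dll1* was 15.7% and 21.4%, that of *Dll4* 7.61% and 11.8%, and that of *Jag2* 25.5% and 28.8%. Relative to *Jag1* within the same genotype, the level of *Dll1* was 0.308 in wild-type and 0.564 in miR-21-/- glands, and that of *Dll4* was 0.149 and 0.312. These shares and ratios do not depend on the scaling between the columns, but their spread between mice is unknown. The sums do depend on that scaling, and equal sums over all loci would shift their log2 ratio by −0.63.

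**Figure D3:**
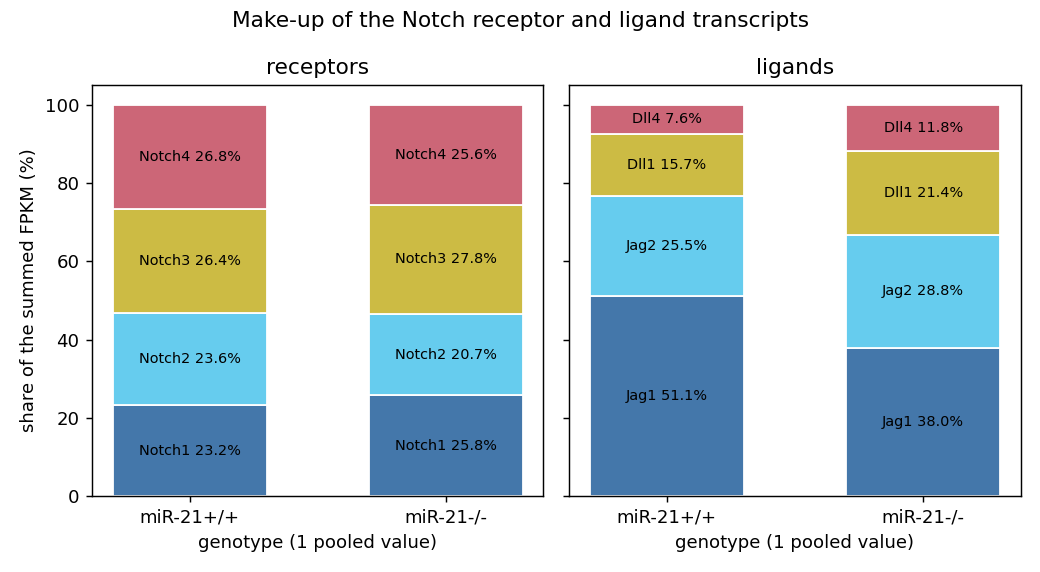
Share of the summed FPKM of the 4 receptor entries (left) and the 4 ligands (right) held by each gene, in percent, with 1 bar per genotype and no error since there is 1 pooled value. The receptor shares differ by −2.91 to 2.61 percentage points between the bars, while *Jag1* takes 51.1% of the ligand sum in wild-type and 38.0% in miR-21-/- glands. The *Notch4* entry includes *Gpsm3*.

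Of the target genes, *Hes1* (chromosome 16, 30065443 to 30067882), a repressor that holds back differentiation in many tissues, stood at 15.9 FPKM in wild-type and 16.6 FPKM in miR-21-/- glands. Its log2 ratio was 0.07 as deposited and −0.56 with equal sums over all loci, and 68.8% of the named loci over the minimum were at least as far apart. *Hey1* (chromosome 3, 8663359 to 8667038), a related repressor known from vessels, stood at 6.52 and 5.47 FPKM, a log2 ratio of −0.26. Within a genotype *Hes1* was 2.43 times the level of *Hey1* in wild-type and 3.05 times in miR-21-/- glands. The 2 targets thus differed from each other in direction as deposited, and neither was 1.5-fold apart.

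The position of the Notch genes limits some of these values. By the GENCODE annotation of mm9, genes on the opposite strand overlap *Notch1*, *Notch3*, *Notch4*, *Dll1* and *Dll4*. The longest overlap is that of *Gm17276* with *Notch3*, 21020 bases. Whether the authors' counting used strand is not given in the sources used here, so reads from both strands at these 5 genes cannot be told apart. No annotated gene overlapped *Jag1*, *Jag2*, *Notch2*, *Hes1* or *Hey1*. The search used the annotated extent of each gene, which can differ from the span of the deposited entry. *Notch1*, for example, is annotated at 26313423 to 26372183. Genes in the rest of the deposited spans were not looked for.

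The RBPJ motif was looked for in RefSeq promoters (GRCm38.p6, 250 bases before to 50 after the start), of which 8 of the 10 genes had an entry and *Hes1* and *Hey1* had none. Neither GTGGGAA nor its shorter core TGGGAA, on either strand, was found in the windows of the 8 genes. Of all 32851 promoter windows, 6.38% held GTGGGAA and 25.6% held TGGGAA, the shorter being part of the longer.

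Beyond these 10 genes, 66 names of pathway genes were listed, and 64 were found in the table. Of these, 47 exceeded 5 FPKM in at least 1 genotype, of which 28 had the higher and 19 the lower value in miR-21-/- glands as deposited, where 43.1% of all named loci over the minimum were higher, with a median log2 ratio of 0.07. Under equal sums over all loci the median was −0.57. Only *Lfng* and *Mfng* of the 47 were at least 1.5-fold apart as deposited, beside 8.07% of all named loci. Neither was with equal sums over named loci (−0.57 and −0.51), while *Dtx4* (0.60) and *Nrarp* (0.59) were. With ratios centred on the median of named loci *Lfng* alone was, at −0.64. *Lfng* and *Mfng* encode Fringe enzymes, which add a sugar to Notch receptors and alter their response to Jagged and Delta-like ligands. *Lfng* stood at 14.1 FPKM in wild-type and 8.84 FPKM in miR-21-/- glands, a log2 ratio of −0.67, and *Mfng* at 47.6 and 31.1 FPKM, a log2 ratio of −0.61. The third Fringe gene, *Rfng*, named with *Pofut1* and *Poglut1* after their values were seen, stood at 11.1 and 10.9 FPKM. All 5 glycosylation genes over the minimum were lower as deposited, with *Pofut1*, which adds the sugar that Fringe extends, at −0.14 and *Poglut1* at 14.7 FPKM in both genotypes, but with equal sums over named loci *Rfng* and *Poglut1* were higher.

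The proteases and the nuclear complex lay closer to equal levels. The counts of higher and lower genes below stand beside 43.1% higher among all named loci over the minimum. Of the 8 cleavage genes over the minimum, 3 were higher and 5 lower, and the widest apart was *Psen2*, a catalytic subunit of γ-secretase, at 22.0 and 18.0 FPKM with a log2 ratio of −0.29. Of the 8 genes of the nuclear complex, 7 were higher and 1 lower as deposited, with *Maml2*, a coactivator, at a log2 ratio of 0.24. Among 11 corepressors 9 were higher and 2 lower, with *Tle2* at 0.33. Of the 4 genes for ligand uptake, *Mib2*, a ubiquitin ligase, was the widest apart at 0.14. Of the 10 inhibitors and turnover genes over the minimum, 8 were higher and 2 lower, with *Dtx4*, of the Deltex family, at 7.83 and 11.1 FPKM and a log2 ratio of 0.51. *Nrarp*, a feedback inhibitor that is itself a Notch target and was singled out after its values were seen, stood at 5.04 and 7.10 FPKM, a log2 ratio of 0.49. The 1 further gene of the Hes and Hey families over the minimum, *Hes6*, stood at 10.1 and 8.97 FPKM, a log2 ratio of −0.17. Whether *Hes6* is a Notch target in this tissue was not tested. With equal sums over all loci each of these genes named as higher was lower, as were most named loci over the minimum.

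Sites for the miR-21 seed were also found in 5 of 63 other pathway genes with an annotated 3′ UTR, and these 5 were named after their values were seen. Over 5 FPKM, as in the background of 7.03%, this was 5 of 46 genes, or 10.9%. The γ-secretase subunit *Psenen* had a log2 ratio of 0.09 and *Rbpj*, the DNA-binding protein of the pathway, 0.17. The coactivator *Kat2b* had a log2 ratio of −0.15, the corepressor *Ncor1* −0.05 and the ubiquitin ligase *Nedd4* −0.13. With *Notch2* at −0.17 and *Jag1* at −0.41, 2 of the 7 pathway genes with a site had the higher value in miR-21-/- glands and 5 the lower, as deposited. With equal sums over all loci, which shifts each by −0.63, all 7 were lower, as were most named loci over the minimum. With equal sums over named loci *Ncor1* was higher too. Of the 48 members and other pathway genes over 5 FPKM with an annotated 3′ UTR and no site, 30 were higher and 18 lower as deposited, and of all named loci over the minimum 43.1% were higher. The difference between the genes with and without a site was not tested.

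Whole glands hold many cell types that carry Notch genes, and several marker lists differed between the genotypes. In such bulk samples, fewer cells of a type and less RNA per cell cannot be told apart. The 8 endothelial markers, which bear on *Notch4*, *Dll4* and *Hey1*, ranged from −0.22 for *Eng* to 0.36 for *Tie1*, with a median log2 ratio of 0.07 and sums of 216 FPKM in wild-type and 222 FPKM in miR-21-/- glands. Among them *Esam* enters by an entry merged with *Vsig2*. The 8 mural and smooth muscle markers, which bear on *Notch3*, were split, with 4 higher and 4 lower as deposited. The higher were *Acta2*, *Myh11*, *Des* and *Tagln*, up to 0.79 for *Tagln*. The lower were *Rgs5*, *Kcnj8*, *Cspg4* and *Pdgfrb*, down to −0.29 for *Pdgfrb*. The sums of all 8, 464 and 672 FPKM, rest largely on *Acta2* (222 and 341 FPKM) and *Tagln* (90.1 and 156 FPKM). Whether the 4 higher ones come from mural cells was not tested, and all basal and skeletal muscle markers were higher as well. All 8 luminal markers were higher as deposited, from 0.15 for *Krt19* to 0.99 for the merged entry of *Gata3*, with sums of 648 and 898 FPKM. All 6 basal markers were higher, from 0.50 for *Krt17* to 1.47 for *Oxtr*, with sums of 91.3 and 163 FPKM. In these sums *Krt14* enters by an entry merged with *Krt16*, at 22.9 and 38.7 FPKM. Of all named loci over the minimum, 43.1% were higher as deposited. With equal sums over all loci the luminal median of 0.52 and the mural median of 0.29 lie below 0, and the basal median of 0.73 stays above it.

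Lymphocyte markers went the other way. The 4 over the minimum were all lower in miR-21-/- glands, from −3.36 for *Ms4a1* to −0.54 for *Cd79a*, whose entry is merged with that of *Arhgef1*. The other 3, at most 5 FPKM in both genotypes, had log2 ratios from −2.40 to −1.83. The merged entry stood at 70.3 and 48.3 FPKM and makes up most of the sum of the 7, which was 109 and 56.3 FPKM. Without it the sum was 38.7 FPKM in wild-type and 4.84-fold lower in miR-21-/- glands. None of the 7 was at 0. The adipocyte markers had a median log2 ratio of −0.42, from −0.54 for *Cidec* to 1.29 for *Lep*, with sums of 10930 and 7999 FPKM. The 6 skeletal muscle markers had a median of 0.79, from 0.48 for *Mylpf* to 1.86 for *Mb*, with sums of 1023 and 1690 FPKM. These differences stand beside those of *Notch2*, *Jag1*, *Dll1*, *Dll4*, *Lfng* and *Mfng*, and their part in them was not tested.

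**Figure D4:**
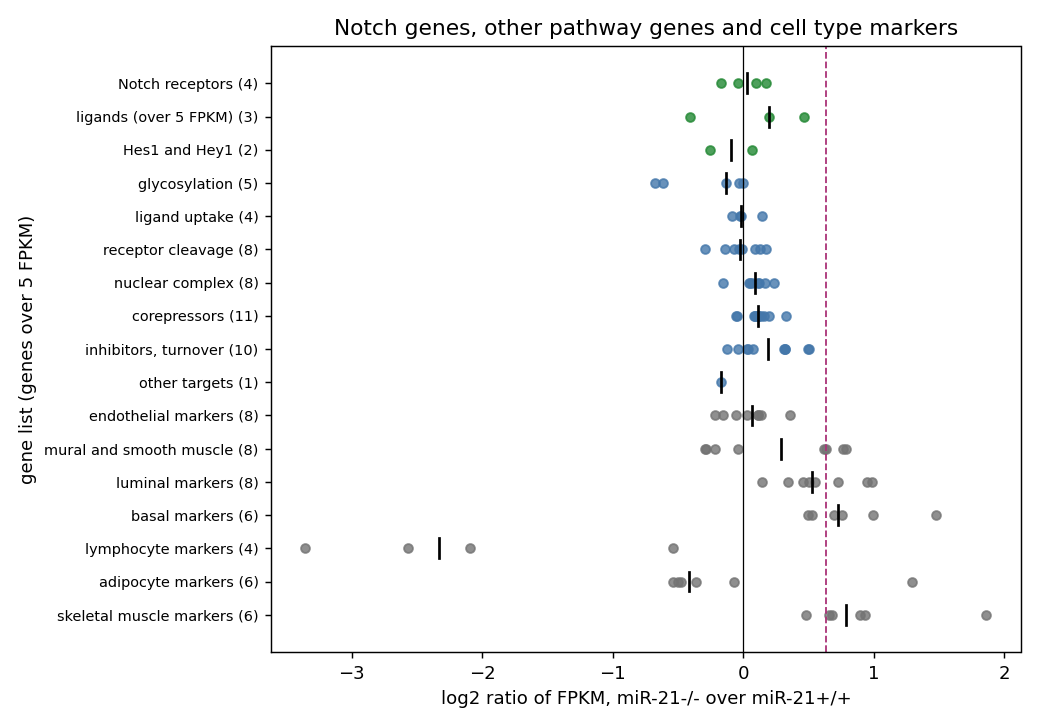
Log2 ratio of FPKM, miR-21-/- over miR-21+/+, for each gene over 5 FPKM in the Notch gene classes (green), the other pathway lists (blue) and the cell type marker lists (grey), with the number of genes in parentheses and a black bar at the median. The dashed line marks where 0 would lie with equal sums over all loci. The Notch classes lie between −0.41 and 0.47, while the lymphocyte markers reach −3.36 and the basal markers 1.47.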

How the data were processed

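Mammary tissue of 2 wild-type and 2 miR-21-/- mice was measured by RNA-Seq. The authors aligned single-end reads to mm9 with TopHat and deposited 1 Cuffdiff table with an FPKM value per locus and genotype, both mice combined. Versions, gene annotation and normalization options are not given in the sources used here. The 5 columns of the authors' comparison (fold change, test statistic, p-value, q-value and call) were not used. The mark for failed tests was used in 1 alternative.

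For each name the row with the highest mean FPKM was kept. Log2 ratios were computed from the deposited FPKM, and counts cover loci over 5 FPKM in at least 1 genotype unless stated, while sums over a list hold all its genes found. Members and lists were chosen with earlier results of these data known. Genes named are the 10 members, other pathway genes at least 1.5-fold apart or else the widest apart of each list, the lowest and highest of each marker list (all of the mural list), and those said to be chosen later. Also named are pathway genes too low for the counts and genes that overlap or share an entry with another. For 1 lymphocyte marker on the list the value is not reported here and enters no count or sum of that list. No other ligand (*Dll3*, *Dlk1*, *Dlk2*, *Dner*) exceeded 5 FPKM. No test was possible with 1 value per genotype. Starts in the table count from 0 (7398 annotated starts matched after adding 1, 424 as printed), and coordinates are given from 1. Planted folds and motifs were tested on simulated data. Seed sites were searched in GENCODE transcripts of mm9 with Python 3.11.15, pandas 2.3.3 and numpy 2.4.6, and figures were drawn with matplotlib 3.10.9.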

Additional observations from a re-analysis of the deposited data

How the results depend on the processing

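No paired analysis was possible because only 1 pooled value per genotype is given, and leaving out each mouse in turn could not be run for the same reason. Pseudocounts, merged or failed entries, summed entries and a minimum of 5 FPKM in both genotypes left the counts at 1.5-fold within 1.5 times their value and the medians within 0.1. With a minimum of 1 FPKM, or none, 1 member (*Dll4*) was at least 1.5-fold apart, and of the other pathway genes 4 and 8 were. Equal sums over all loci moved most values. The count of members at least 2-fold apart was then 1 (*Jag1*), and at least 1.5-fold apart 4, with a median of −0.56. Of the other pathway genes 22 were then at least 1.5-fold apart, with a median of −0.57. This scaling shifts every named locus by the same −0.63, from a deposited median of −0.03 for those over the minimum. The share of all named loci past these folds under it was not computed, so these counts have no background beside them. With ratios centred on the median of named loci, 1 of the other pathway genes was at least 1.5-fold apart. With equal sums over named loci 2 were, *Dtx4* and *Nrarp*, both higher, while *Lfng* and *Mfng* were under 1.5-fold. Leaving out the merged entry of *Notch4*, chosen after seeing the data, moved the difference in the share of *Notch2* to −4.41 percentage points. The number of members with a seed site stayed at 2 and with an RBPJ motif at 0 under each alternative tried.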

Other observations

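Several pathway genes were too low for the counts. *Heyl*, a further target known from vessels, stood at 3.14 FPKM in miR-21+/+ and 2.97 FPKM in miR-21-/- glands, and *Hey2* at 0.565 and 0.577 FPKM. The Hes family genes *Hes2*, *Hes3*, *Hes5* and *Hes7* and the ligands *Dll3*, *Dlk1*, *Dlk2* and *Dner* were each under 1 FPKM in both genotypes. *Dtx1*, a Deltex gene of lymphocytes, stood at 1.57 and 0.898 FPKM, and *Maml3*, a coactivator, at 1.95 and 2.97 FPKM.

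The table holds a second entry named *Notch1* over the same stretch of chromosome 2, at 3.13 FPKM in miR-21+/+ and 3.57 FPKM in miR-21-/- glands. Its log2 ratio of 0.19 lay beside 0.17 for the entry used above. A second entry of *Nrarp* stood at 0.447 and 0.232 FPKM, lower in miR-21-/- glands, where the entry used above was higher.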
